A study of Mus musculus with 7 samples.

Results

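The genes described here are 34 members of the cytosolic and mitochondrial protein folding machinery: 26 heat shock proteins, cochaperones and heat shock factors, and the 8 subunits of the cytosolic chaperonin. They were taken by name, and each was found in the deposited table through the RefSeq transcript of its record, using the record of highest mean where a gene had several. All 34 were present, of 20385 genes with a symbol. The libraries are mRNA sequencing of E14, a line of mouse embryonic stem cells, here kept in 2i medium, which holds such cells in the naive state. All cells carried a Brn2-RFP GAVPO cassette, in which GAVPO, a light-switched transcription factor, drives the POU-domain factor Brn2 (Pou3f2) with a red fluorescent protein. LED light of 300 µW was given, and the 7 libraries carry the labels 0, 2, 4, 6, 14, 24 and 48 h, 1 each and without replicates. No dark library of matched age was analysed here, so light, Brn2 induction and time in culture cannot be told apart, and the labels do not say whether the line is 1 clone.

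Molecular chaperones bind unfolded protein and release it in cycles driven by ATP. Hsp70 takes early or exposed chains with the help of J-domain proteins and exchange factors, Hsp90 finishes kinases, receptors and other clients with its own cochaperones, and the barrel-shaped chaperonins enclose chains, TRiC in the cytosol (actin and tubulin are its best known clients) and Hsp60 with Hsp10 in mitochondria. Heat shock factor 1 induces many of these genes by binding inverted repeats of nGAAn, the heat shock element. Embryonic stem cells are known for high constitutive levels of several chaperones.

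Because heat shock elements are the known binding sites of the heat shock factors, promoter windows from RefSeq (GRCm38.p6, 250 bases before to 50 after a start) were searched for them. The letters searched on both strands were 2 units, GAA then TTC or TTC then GAA, with 2 bases of any kind between them, and 3 such units in alternation, beginning with either, at the same spacing, each of which contains shorter matches. Windows were at hand for 27 members, and not for Hspa8, Hspa9, Hsp90aa1, Hsp90ab1, Hsf1, St13 and Cct4. A match of 2 units lay in a window of 11 of 20 heat shock genes (Hspa1a, Hspa1b, Hsph1, Dnajb4, Dnaja1, Hspb1, Hspd1, Hspe1, Bag3, Chordc1 and Fkbp4) and of 3 of 7 chaperonin genes (Cct2, Cct5 and Cct6a), against 17% of all genes with a window. A match of 3 units lay in 4 of the 20 (Hspd1, Hspe1, Hsph1 and Chordc1) and in 0 of the 7, against 0.662% of all genes. The stretches below show the pair that shares an element, the near-identical Hsp70 pair, a heat shock gene with 2 separate matches, an exchange factor, and the chaperonin subunits for comparison. Each is read 5′ to 3′ on the gene's own strand, and capitals mark the matched GAA and TTC units.
Hspe1: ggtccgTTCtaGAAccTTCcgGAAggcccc
Hspd1: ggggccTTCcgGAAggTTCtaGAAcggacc
Hspa1a: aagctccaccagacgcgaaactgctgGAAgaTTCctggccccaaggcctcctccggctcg
Hspa1b: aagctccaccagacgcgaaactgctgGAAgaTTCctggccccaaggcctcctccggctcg
Hspb1: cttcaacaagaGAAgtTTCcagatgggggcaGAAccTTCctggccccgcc
Hsph1: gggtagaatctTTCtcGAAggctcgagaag
Cct2: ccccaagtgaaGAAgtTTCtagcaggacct
Cct5: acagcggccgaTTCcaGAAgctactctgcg

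The Hspe1 and Hspd1 stretches are the same bases, chr1:55088053-55088082, read on the plus and the minus strand: these genes face away from each other, and their windows shared 285 of 300 bases. The stretch begins 95 bases before the Hspe1 start and 150 before the Hspd1 start. The Hspa1a and Hspa1b stretches (chr17:34972227-34972286 and chr17:34959309-34959368, both minus strand, from 130 to 71 bases before the start) are letter for letter the same, and the 250 bases before the 2 starts agree at 247. The Hspb1 stretch is chr5:135887791-135887840 on the plus strand, and Hsph1 is chr5:149636351-149636380 on the minus strand. The Cct2 and Cct5 stretches are chr10:117063399-117063428 and chr15:31601862-31601891, both minus strand, and each holds a single match of 2 units. A match is a description of letters, and no binding was measured here.

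The recovered depth of the libraries was 7.06 to 16.2 M reads. The libraries labelled 6 h and 48 h stand apart by base composition: against each gene's mean over the 7 libraries, the tenth of genes richest in GC had a median log2 deviation of 0.23 at 6 h and 0.52 at 48 h, and the tenth poorest in GC -0.26 and -0.57, while at 0 h these were -0.35 and 0.27. Values with that GC trend removed are therefore given beside many of the deposited ones. The library labelled 0 h, to which most ratios refer, differed by transcript length: the tenth of genes with the shortest transcripts had a median deviation of -0.33 there, against -0.097 to 0.19 in the other 6, and no length trend was removed. Pou3f2, the induced gene, had a deposited value of 77.0 at 0 h, 119 at 14 h and 7.19 at 48 h, which does not follow the labelled time, so every time named here is the label of a library. The 8 stem cell markers summed to between 403 and 563 in every library, sums in which the genes of highest value weigh most. Named after their values were seen, Pou5f1 had 154 at 0 h and 235 at 48 h, and Zfp42 55.5 and 34.3. Nanog had 81.4 at 0 h, 33.4 at 14 h and 67.3 at 48 h. The change fitted below was negative for 5 of these 8 markers, with a median of -0.32, and 0 were called. The 7 neuron markers summed to 7.05 at 0 h, 14.3 to 17.9 from 2 to 24 h and 50 at 48 h, most of it Tubb3, the 7 fibroblast markers to at most 3.35 and the 5 endoderm markers to at most 5.31, both also highest at 48 h, and the 4 trophectoderm markers to at most 1.03. Low values hardly enter such sums. Fitted on recovered reads with limma-voom (below), which called 2.25% of genes as rising, Map2 (neuron), Col1a2 (fibroblast) and Foxa2 (endoderm) rose. Their changes were 3.76, 9.30 and 6.45 (limma-voom adjusted p = 0.00751, 0.00820 and 0.00579). All were also called with the GC trend removed (0.0103, 0.0203 and 0.0141), where 1.76% of genes rose. The part of these markers in the values of the 48 h library was not tested.

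Values below are the deposited ones, which behave as RPKM taken over the genomic span (introns included), so they compare libraries for 1 gene and not genes with each other. The trend of each gene over the 7 libraries was fitted with limma on log2(value + 1) against log2(hours + 1), and its change is the fitted log2 difference from 0 to 48 h with its standard error. The threshold for a call was a p of 0.05 after Benjamini-Hochberg adjustment over all 6424 genes of mean value at least 1.

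None of the 33 members tested was called: 0 of 25 heat shock genes and 0 of 8 chaperonin subunits. Over all genes 0.296% were called as rising and 0.0623% as falling. At an unadjusted p under 0.05 there were 5 heat shock genes with a negative change (Hsp90aa1, Hsph1, Hsf2, Hspa1b and Hspa8), 1 with a positive change (Hsf1) and no chaperonin subunit, where 21.6% of all genes were under it, 9.92% with a negative and 11.6% with a positive change. Of the heat shock genes, 18 of 25 had a negative fitted change, and their median was -0.50, and of the chaperonin subunits 6 of 8, with a median of -0.15, against 49.6% of all genes and a median of 0.0053. Dnajb4, a J-domain protein, was under the filter. In bulk RNA, a lower level in every cell and fewer cells that express a gene cannot be told apart.

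**Figure D1:**
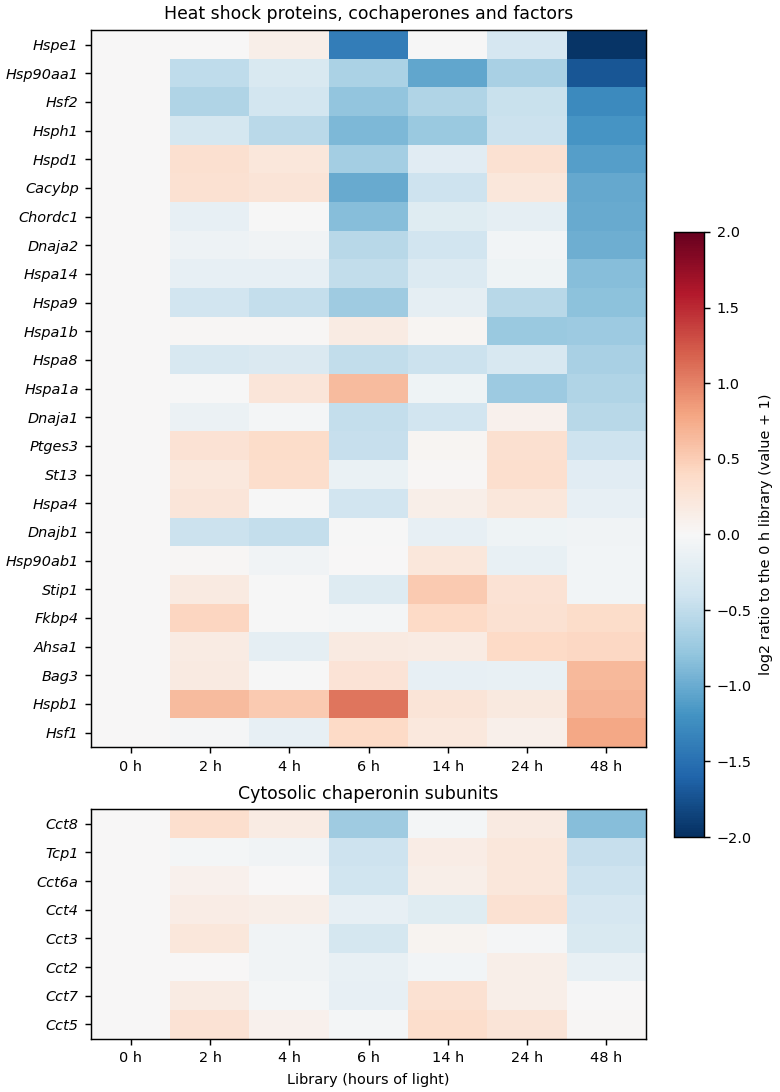
Colour gives the log2 ratio, with 1 added to each value, of every library to the 0 h library, for the 25 heat shock genes above and the 8 chaperonin subunits below, each ordered by the 48 h library. The blue columns at 6 h and 48 h hold most of the low values, with Hspe1 the lowest at -1.97 and Hsf1 the highest at 0.77 at 48 h.

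Cytosolic Hsp90 is made by a pair of genes, the stress-inducible Hsp90aa1 (Hsp90α) and the constitutive Hsp90ab1 (Hsp90β), and the pair differed in course. Hsp90aa1 had values of 999, 699, 807, 643, 484, 639 and 304 from 0 to 48 h. Its highest library was thus 0 h and its lowest 48 h, 3.29 times apart, with 14 h the second lowest. The fitted change was -1.42 ± 0.33 (SE), with a limma adjusted p of 0.0764, which misses the threshold. Fitted on recovered reads with limma-voom, which called 2.25% of 13505 genes as rising and 0.800% as falling, Hsp90aa1 fell by 1.42 ± 0.30 (adjusted p = 0.0324) and was the 1 member called among 34. Its change on reads without the GC trend was -0.96 ± 0.22 (adjusted p = 0.0486, where 1.76% of genes rose and 0.622% fell). The call on reads with the GC trend kept was lost without the 0 h (limma-voom adjusted p = 0.0886), the 4 h (0.0616) or the 48 h library. Without the 48 h library the change was -0.98 and the adjusted p 0.506. No library was left out of the fit on reads without the GC trend. Against hours on a linear scale, where 2.52% of genes rose and 0.436% fell, its limma adjusted p was 0.0398. Over all alternatives its adjusted p ran from 0.0173 to 0.640.

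Hsp90ab1 had values of 1118, 1135, 1061, 1126, 1311, 1007 and 1072 from 0 to 48 h. They lay within 1.3 times of each other, and the fitted change was -0.047 ± 0.23 (limma adjusted p = 0.918). Per kilobase of spliced transcript, the scale used here to compare genes, Hsp90aa1 stood at 1763 and Hsp90ab1 at 2439 RPKM at 0 h, and at 536 and 2338 at 48 h. The difference between the courses of the pair was not tested. Hsp90ab1 was chosen for printing after its values were seen, as the paralog of Hsp90aa1, and so were Hspa8, Hspb1 and Bag3 below.

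**Figure D2:**
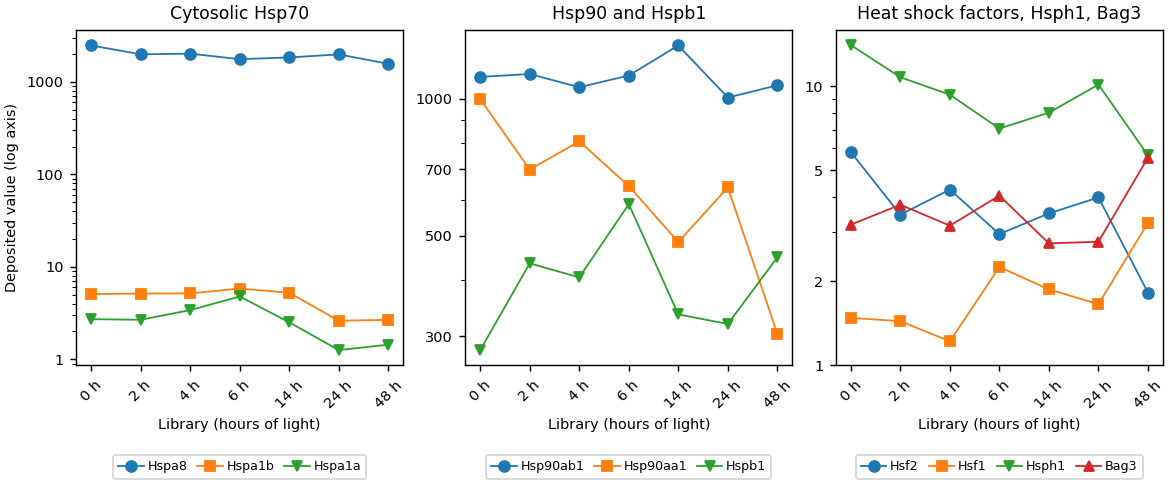
Deposited values in the 7 libraries on log axes, 1 point per library: cytosolic Hsp70 genes (left), Hsp90 genes and Hspb1 (middle), heat shock factors, Hsph1 and Bag3 (right). Hsp90ab1 stays between 1007 and 1311 while Hsp90aa1 goes from 999 to 304. Hsf1 is highest and Hsf2 lowest at 48 h.

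Among the Hsp70 genes, the constitutive Hspa8 (Hsc70) was the most abundant member per kilobase of transcript, and the heat-inducible pair Hspa1a and Hspa1b were among the 3 lowest. Hspa8 had values of 2476, 1988, 2020, 1761, 1838, 1983 and 1572 from 0 to 48 h, highest at 0 h and lowest at 48 h, with a fitted change of -0.50 ± 0.22 (limma adjusted p = 0.225). Its introns hold snoRNA genes, and the values span introns, so reads of these cannot be set apart. Hspa1a had values of 2.71, 2.68, 3.40, 4.78, 2.51, 1.26 and 1.44, and Hspa1b of 5.07, 5.14, 5.16, 5.83, 5.24, 2.61 and 2.67. Both were highest at 6 h and lowest at 24 h, and their 24 and 48 h libraries lay below all earlier ones. Fitted changes were -0.80 ± 0.40 for Hspa1a (limma adjusted p = 0.268) and -0.82 ± 0.32 for Hspa1b (0.186). Removal of the GC trend gave -1.41 (0.102) and -1.38 (0.0840). Both transcripts are rich in GC, at 58.9% and 58.1%, and rest on 37.2 to 194 and 73.0 to 224 recovered reads per library. Hspa1a and Hspa1b are near-identical copies, so how reads were split between them is uncertain and the 2 are not independent. Gm20481 also overlaps Hspa1a on the other strand.

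The remaining Hsp70 proteins were, like Hspa8, highest at 0 h and lowest at 48 h. Hspa9, the mitochondrial Hsp70 (mortalin), ranged from 22.1 at 48 h to 39.9 at 0 h, and Hspa14, an Hsp70 of the ribosome-associated complex, from 2.41 at 48 h to 5.17 at 0 h. Their fitted changes were -0.58 ± 0.30 and -0.57 ± 0.29 (limma adjusted p = 0.276 and 0.267). Hspa14 overlaps the gene Gm45902 on its own strand, and Hspa9 the snoRNA genes Gm22200 and Gm26109.

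Nucleotide exchange factors release ADP from Hsp70. Hsph1 (Hsp105), an Hsp110 protein, had values of 14.1, 10.8, 9.34, 7.06, 8.05, 10.2 and 5.66 from 0 to 48 h. It was highest at 0 h and lowest at 48 h, 2.48 times apart, with a fitted change of -0.90 ± 0.31 (limma adjusted p = 0.151). Hspa4, its relative, ranged from 8.77 at 6 h to 14.2 at 2 h with a fitted change of -0.064 ± 0.30 (0.914). Bag3, the BAG-domain partner of Hsp70 in selective autophagy, had 3.19, 3.76, 3.17, 4.06, 2.74, 2.77 and 5.56, highest at 48 h, with a change of 0.25 ± 0.32 (0.658).

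J-domain proteins bring clients to Hsp70 and start its ATPase cycle. Dnajb1 (Hsp40), itself a heat shock gene, ranged from 27.4 at 4 h to 38.7 at 0 h, with a fitted change of 0.12 ± 0.29. Dnaja1 ranged from 4.51 at 48 h to 7.60 at 24 h and Dnaja2 from 5.73 at 48 h to 12.2 at 0 h, with fitted changes of -0.36 ± 0.29 and -0.70 ± 0.33. The limma adjusted p was 0.833 for Dnajb1, 0.474 for Dnaja1 and 0.247 for Dnaja2. Dnaja1 has 3 records in the table, and with these summed its change was -0.75 (limma adjusted p = 0.247). After removal of the GC trend Dnaja2 lay between 8.25 and 10.4 and Dnaja1 between 5.72 and 6.90. Dnajb4 rests on 9.02 to 24.1 recovered reads per library. At that depth no course could be read.

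Hspb1 (Hsp25 in mouse), a small heat shock protein that holds unfolded chains without ATP, was the member with the largest excess over 0 h at 6 h. Its values were 280, 434, 404, 587, 335, 319 and 448 from 0 to 48 h. The 0 h library was the lowest and all 6 later ones lay above it, with log2 ratios of 0.63 at 2 h, 1.07 at 6 h and 0.68 at 48 h. The fitted change was 0.24 ± 0.39 (limma adjusted p = 0.742). Its transcript, at 0.903 kb, was the shortest of all members but Hspe1, and the part of the length shift at 0 h was not tested. It had the highest GC content of all members, 60.7%, and with the GC trend removed the change was -0.45 and the log2 ratio at 6 h 0.48. The ratios at 14, 24 and 48 h were then negative, at -0.26, -0.023 and -0.22, and the lowest library was 14 h.

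The mitochondrial chaperonin, Hsp60 (Hspd1) with its lid Hsp10 (Hspe1), is encoded by the pair with the shared promoter stretch printed above, and both genes were low in the same 2 libraries. Hspe1 had values of 78.1, 78.7, 85.0, 29.4, 78.0, 61.8 and 19.2 from 0 to 48 h. Hspd1 had 63.5, 79.3, 74.6, 39.2, 53.9, 78.6 and 28.9. Both were lowest at 48 h and second lowest at 6 h, and at 14 and 24 h both lay above their 6 h values. As log2 ratios, Hspe1 at 6 h lay -1.50 from 4 h and at 48 h -1.64 from 24 h, and Hspd1 -0.91 and -1.41. A straight trend describes such a course poorly: the fitted changes were -1.44 ± 0.66 and -0.80 ± 0.50 (limma adjusted p = 0.239 and 0.359).

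With the GC trend removed, Hspe1 still had 27.8 at 6 h and 18.3 at 48 h against 61.1 to 86.9 elsewhere, and Hspd1 41.7 and 33.7 against 56.0 to 74.9. Both 6 h and 48 h stayed the lowest libraries of each gene. Hspe1 rests on 987 to 3697 recovered reads and Hspd1 on 4765 to 9640. Hspe1 overlaps Hspd1 on the other strand, whether counting used strand is not stated, and 6 pseudogenes in the annotation are named after Hspe1 and 5 after Hspd1, so reads shared between these cannot be set apart. The table's own name column gives the Hspe1 record as EG628438. Of 8 tested genes for other mitochondrial chaperones and proteases, 0 were called, and the median fitted change was 0.0096. Among those Grpel1, the exchange factor of mortalin, ranged from 10.1 to 14.3, Lonp1 from 7 to 12 and Clpp from 15.5 to 25.3. None of those 3 had its lowest pair of libraries at 6 and 48 h, while Dnajc19, of the same list and named after its values were seen, did, with 1.94 at 6 h and 1.26 at 48 h.

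**Figure D3:**
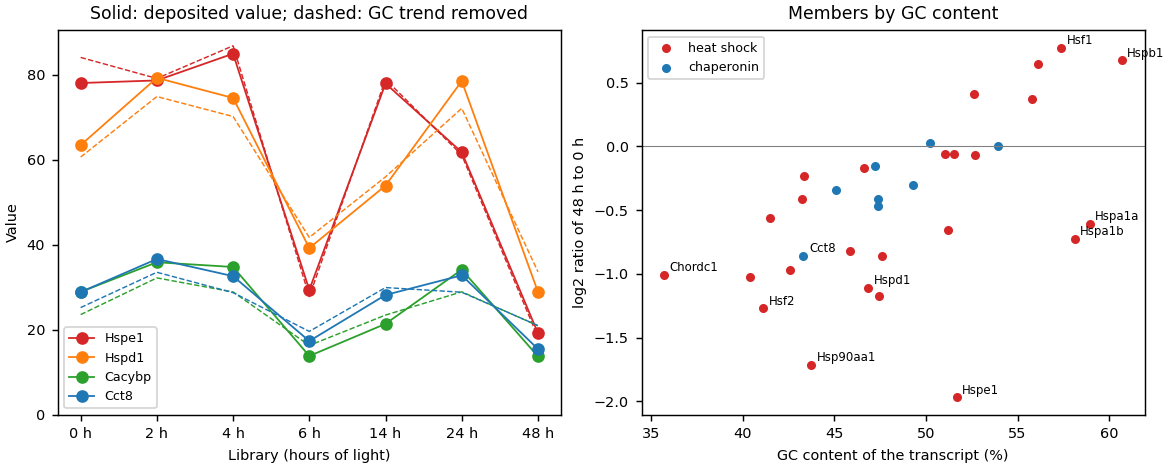
Left: values of Hspe1, Hspd1, Cacybp and Cct8 in the 7 libraries, as deposited (solid) and with each library's GC trend removed (dashed); all 4 are low at 6 and 48 h. Right: the log2 ratio of 48 h to 0 h of the 33 members against the GC content of the transcript, red for heat shock genes and blue for chaperonin subunits; Hspe1 lies lowest at a GC content of 51.7%.

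The heat shock factors, which bind heat shock elements, had fitted changes of opposite sign. Hsf1, the main stress-responsive factor, had values of 1.48, 1.44, 1.22, 2.25, 1.87, 1.66 and 3.24, highest at 48 h. Hsf2, a factor linked to development, had 5.82, 3.47, 4.27, 2.95, 3.51, 4.00 and 1.82, highest at 0 h and lowest at 48 h. Fitted changes were 0.63 ± 0.28 for Hsf1 and -0.88 ± 0.31 for Hsf2 (limma adjusted p = 0.222 and 0.158). Their GC contents lie at opposite ends of the members, 57.4% and 41.1%. On values without the GC trend the changes were 0.11 and -0.29 (adjusted p = 0.788 and 0.467). On reads without the 24 h library, where 3.5% of genes rose and 2.42% fell, 2 members were called beside Hsp90aa1: Hsf2 at -1.47 (adjusted p = 0.0393) and Hsph1 at -1.28 (0.0374).

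Among the further cochaperones, which act with Hsp90 or Hsp70, none was called. Cacybp, which binds Siah1 and S100 proteins and carries an Hsp90-binding CS domain, had 28.9, 35.9, 34.8, 13.8, 21.4, 34.1 and 13.7 from 0 to 48 h. Its 6 and 48 h libraries were the lowest, as for the mitochondrial pair, and its fitted change was -0.80 ± 0.53 (limma adjusted p = 0.392), or -0.17 with the GC trend removed. Cacybp is poor in GC (40.4%), and with the trend removed it had 16.3 at 6 h and 20.9 at 48 h against 23.5 to 32.2 elsewhere. Chordc1 (CHP-1) is a CS-domain partner of Hsp90 and the member poorest in GC (35.7%). It ranged from 1.19 at 48 h to 3.39 at 0 h. Its change was -0.72 ± 0.36 (limma adjusted p = 0.264), or 0.21 on values with the trend removed. On reads with the trend removed the change of Chordc1 stayed negative. Its mean value, 2.56, is under the minimum of 5 for the genes from which the trend was taken.

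The other 5 lay closer to 0. Fkbp4 (FKBP52), an immunophilin of steroid receptor complexes, ranged from 57.3 to 79.8, and Ahsa1 (Aha1), which speeds the Hsp90 ATPase, from 18.4 to 28.1. Stip1 (Hop), which bridges Hsp70 and Hsp90, ranged from 21.9 at 6 h to 38.6 at 14 h. Ptges3 (p23), which steadies the closed Hsp90 dimer, ranged from 19.2 to 35.1 and St13 (Hip), which holds Hsp70 in its ADP form, from 7.62 to 12. Their fitted changes in that order were 0.33, 0.45, 0.15, -0.28 and -0.13, with limma adjusted p from 0.330 to 0.811. Of 31 tested genes for other cytosolic chaperones and cochaperones, 0 were called on the values or on reads, with a median fitted change of -0.19. The 4 of largest change and mean of at least 5 were Tomm34 (1.16), Nudcd2 (-0.75), Ppid (-0.66) and Bag6 (0.65).

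The cytosolic chaperonin TRiC (CCT) is a double ring in which each of the 8 subunits has a fixed place. Over the 7 libraries, Cct2 ranged from 57.3 to 69.5, Cct3 from 13.9 to 21.3, Cct4 from 31.6 to 49.9 and Cct5 from 48.3 to 63.5. Cct6a ranged from 11.6 to 18.6, Cct7 from 22.0 to 30.9, Cct8 from 15.5 to 36.7 and Tcp1 from 36.0 to 58.9. The highest and lowest libraries were 1.21 (Cct2) to 1.64 (Tcp1) times apart for 7 subunits and 2.37 times for Cct8. On these deposited values each subunit's lowest library was 6 h or 48 h.

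Cct8, the subunit of largest fitted change, had 28.9, 36.7, 32.6, 17.3, 28.2, 32.8 and 15.5 from 0 to 48 h, lowest at 6 and 48 h. Cct3 had 18.1, 21.3, 17.1, 13.9, 18.8, 17.8 and 14.5, and Cct4 had 40.3, 45, 43.9, 36.0, 34, 49.9 and 31.6. Fitted changes were -0.63 ± 0.44 for Cct8, -0.25 ± 0.28 for Cct3 and -0.23 ± 0.31 for Cct4 (limma adjusted p = 0.415, 0.614 and 0.681). Cct8 is the subunit poorest in GC, at 43.3%, and with the GC trend removed its change was -0.19 and its range 19.6 to 33.5. The gene Usp16 overlaps Cct8 on the other strand, as Psph does Cct6a, Pradc1 does Cct7 and Acat3 does Tcp1. On their own strand, snoRNA genes overlap Cct6a (Gm23245 and Snora15) and Tcp1 (Gm26130 and Snora20), and their reads cannot be set apart.

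Prefoldin hands chains to TRiC. Of 7 tested prefoldin genes and chaperonin cofactors, 0 were called, with a median fitted change of -0.024, and Pfdn5 and Pfdn6 had changes of -0.02 and 0.25. The actins and tubulins, the main clients, had a positive change for 11 of 12 tested genes, and their median was 0.74 (0.36 after GC correction), and 0 were called on the values. On reads 1 of 12 was called: Tuba1a rose by 1.40 (limma-voom adjusted p = 0.0311), though not with the GC trend removed (0.0518). Tuba1a had 163 at 0 h and 509 at 48 h, Tubb5 388 and 930, Tubb2a 14.0 and 42.2, and Tubb3, a neuronal tubulin, 5.40 and 44.6. The highest library of each of these 4, named for the size of their change, was 48 h. Among the other clients, Actg1 was highest at 2 h and Tuba1b at 14 h. On the deposited values the 48 h library was the lowest of Cct2, Cct4, Cct6a, Cct8 and Tcp1. For Cct3, Cct5 and Cct7 the lowest was 6 h. With the GC trend removed, 48 h was the lowest library of no subunit. The lowest was then 6 h for Cct3, Cct5, Cct6a, Cct7, Cct8 and Tcp1, 4 h for Cct2 and 14 h for Cct4. Cct2 was then highest at 48 h. Relations between clients and subunits were not tested.

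Heat shock genes and chaperonin subunits were also compared library by library, as log2 ratios to 0 h with 1 added to each value and without a test. At 48 h, 13 of 25 heat shock genes lay past 1.5-fold below 0 h and 3 above (Hspb1, Bag3 and Hsf1), where 17.2% of all genes lay below and 20.2% above, and 1 of 8 chaperonin subunits (Cct8) lay below. The medians were -0.61 and -0.32, a difference of -0.29. At 6 h, 8 heat shock genes lay below and 2 above (6.57% and 11.4% of all genes), and 1 chaperonin subunit below, with medians of -0.46 and -0.26. At 2 h there was 1 heat shock gene below and 1 above (5.90% and 6.35%), and at 4 h 0 in either direction (2.71% and 5.28%). At 14 h 3 lay below (7.46% of all genes below, 10.1% above) and at 24 h 3 (6.85% and 8.02%), with no chaperonin subunit past the fold at 2, 4, 14 or 24 h. The heat shock median was below the chaperonin median at 2, 6, 14, 24 and 48 h and differed from it by 0.0025 at 4 h. These ratios share the 0 h library.

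**Figure D4:**
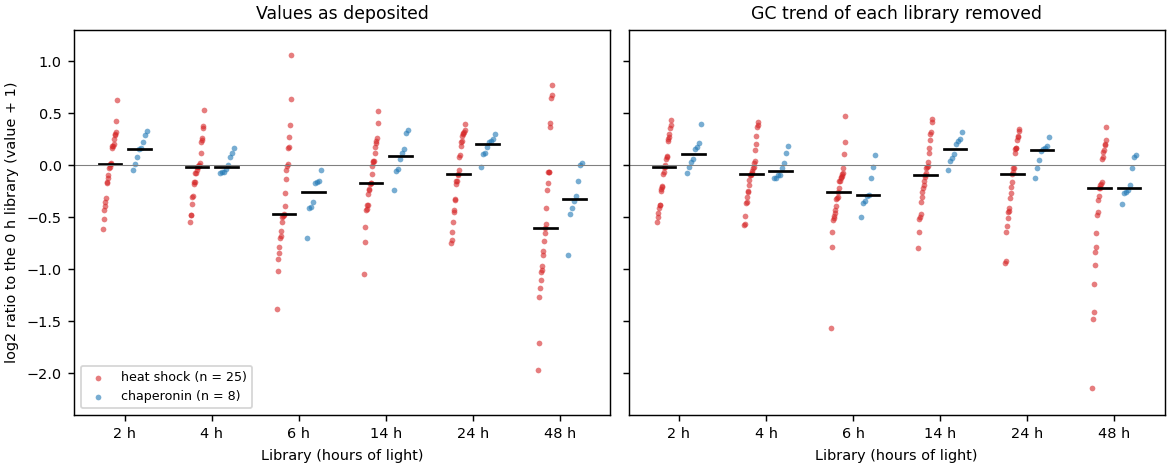
Log2 ratio to the 0 h library, 1 added to each value, of the 25 heat shock genes (red) and 8 chaperonin subunits (blue) in each later library, with black bars at the medians; deposited values left, GC trend of each library removed right. At 48 h the medians are -0.61 and -0.32 on the left and -0.22 and -0.22 on the right, and the heat shock genes reach lower than the subunits on both sides.

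With the GC trend removed, the gap between the groups at 48 h was -0.0061, with both medians at -0.22. Past 1.5-fold below 0 h there were then 8 heat shock genes (12.8% of all genes) and 0 chaperonin subunits: Hspe1 at -2.14, Hspa1b at -1.48, Hspa1a at -1.41, Hsp90aa1 at -1.15, Hsph1 at -0.96, Hspd1 at -0.83, Hspa8 at -0.79 and Hspa14 at -0.65. At 6 h there were 3 (3.99% of all genes), Hspe1, Hsph1 and Hspa8, and the difference between the medians turned to 0.032. Past 1.5-fold above 0 h there were then 0 heat shock genes at 48 h (9.70% of all genes) and 0 at 6 h (3.81%). Hspb1, Bag3 and Hsf1 were thus no longer above the fold at 48 h. At 24 h the groups differed by -0.23 with the trend removed and by -0.29 without, and at 14 h by -0.25 both ways. With quantile normalization the 6, 14, 24 and 48 h differences were -0.085, -0.17, -0.060 and -0.074, and the one at 2 h turned to 0.015.

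In a count chosen after the data were seen, the libraries labelled 6 h and 48 h were the 2 lowest for 15 of 25 heat shock genes and 5 of 8 chaperonin subunits, and for 15.3% of all genes and 47.1% of those with a GC content under 45%. Without the GC trend the counts were 9 of 25 (Hspa8, Hspa14, Hsph1, Dnaja2, Hspd1, Hspe1, Fkbp4, Stip1 and Cacybp) and 6 of 8 (Cct3, Cct5, Cct6a, Cct7, Cct8 and Tcp1), and 9.06% of all genes. The part of any other property of these 2 libraries was not tested.

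Members were also set beside genes of like GC content, on the deposited values. Among members with a GC content under 45%, 6 of 9 lay past 1.5-fold below 0 h at 48 h, and 52.4% of all genes of that class. Between 45 and 55% these were 6 of 18 and 12.2%, and over 55% 2 of 6 (Hspa1a and Hspa1b) and 2.19%. At 6 h they were 5 of 9 and 24.0%, 4 of 18 and 3.56%, and 0 of 6 and 0.107%.

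Both groups were also compared between libraries other than 0 h. From 24 to 48 h, 11 of 25 heat shock genes and 4 of 8 subunits (Cct4, Cct6a, Cct8 and Tcp1) lay past 1.5-fold lower, where 11.3% of all genes did, with medians of -0.39 and -0.46. From 4 to 6 h, 5 of 25 and 1 of 8 were lower (4.19% of all genes), with medians of -0.33 and -0.28. From 6 to 24 h, 6 of 25 and 3 of 8 were higher (7% of all genes) and 3 of 25 lower (12%: Hspa1a, Hspa1b and Hspb1), with medians of 0.36 and 0.40. Removing the GC trend left 2 of 25 and 0 of 8 lower from 24 to 48 h (3.66% of all genes), with medians of -0.20 and -0.26. From 4 to 6 h it left 3 of 25 and 0 of 8 lower (2.46%), with medians of -0.13 and -0.22. From 6 to 24 h it left 5 of 25 and 0 of 8 higher (4.5%) and 2 of 25 lower (8.13%), with medians of 0.13 and 0.35. These 3 contrasts were chosen after the data were seen.

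Levels of different genes were compared as RPKM over the spliced transcript, by the median of the 7 libraries. The reads were recovered over the genomic span, so reads in introns raise a level by an amount not known for each gene. The order of genes is therefore approximate. Hspa8 stood first at 3493, followed by Hsp90ab1 at 2439, Hsp90aa1 at 1135 and Hspb1 at 737. The chaperonin subunits were within 2.65 times of each other, from 151 (Cct8) to 401 (Cct2), and Hspe1 (320), Hspd1 (267), Fkbp4, Ptges3 and Stip1 lay in the same range. The level of Cct6a (383) is uncertain, as it scales with a genomic span taken from another transcript than its record. That span was 59.4 kb, against 8.69 to 24.7 kb for the other subunits. The heat shock factors were low, Hsf2 at 36.0 and Hsf1 at 19.3, and Chordc1 (12.6), Hspa1b (5.14), Hspa1a (2.68) and Dnajb4 (0.627) were lowest. The order at the top depended on the library for 1 pair: Hsp90aa1 stood above Hspb1 at 0, 2, 4, 6, 14 and 24 h and below it at 48 h, at 536 against 816. Ranges over the libraries overlapped for 30 of the 33 neighbours in this order, and did not between Hsp90ab1 and Hsp90aa1, Hspb1 and Cct2, and St13 and Dnaja2.

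**Figure D5:**
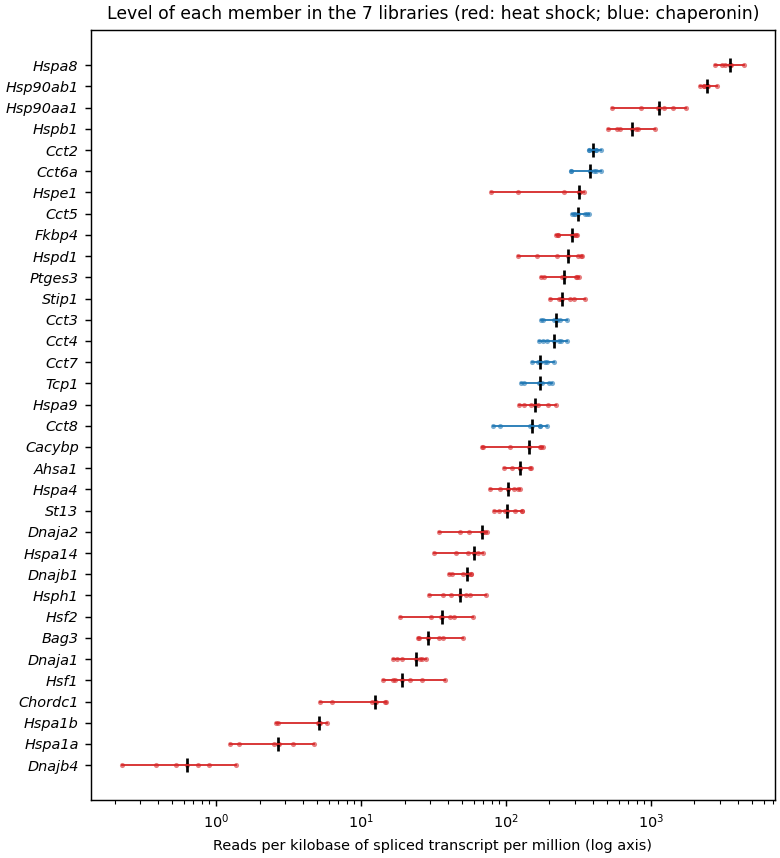
RPKM over the spliced transcript (reads per kilobase, scaled to library depth) on a log axis, for each of the 34 members; points are the 7 libraries, lines their range and black ticks the median, with heat shock genes in red and chaperonin subunits in blue. Hspa8 is highest with a median of 3493, the chaperonin subunits lie between 151 and 401, and Hspa1a and Hspa1b are near the bottom. The place of Cct6a is uncertain, as its span came from another transcript.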

How the data were processed

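RNA of 7 libraries of light-treated E14 cells was taken with an RNeasy kit and sequenced from Lexogen SENSE libraries, per the labels' protocols. The submitters' processing notes name Bowtie2 and the mm9 build. The counter, its strand setting and the unit are not given there. The authors deposited 1 value per RefSeq transcript and library. Multiplied by a library factor and the genomic span (GENCODE vM21, GRCm38), the low values (2 to 20 reads) came within 0.1 of whole reads in 79.6% to 81.2% of cases, where chance gives 20% and the spliced length gave 21.7% to 23.1%. The deposited signal thus behaves as RPKM per genomic span. Read numbers are therefore approximate, and spans come from another build than the authors'. How a multiply mapped read was counted is not given.

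Symbols were matched by accession (26359 transcript records, 20385 genes), and the record of highest mean was used. The spliced length and span of Cct6a came from the nearest matching transcript. The unit was unknown when tests were listed, and the one for normalized expression was run: limma 3.58.1 in R 4.3.3 (lmFit, eBayes with a mean-variance trend) on log2(value + 1), with 5 residual degrees of freedom. Adding 1 understates changes of low genes. The test takes 7 single libraries as independent points on a line, so p-values measure scatter around that line. Alternatives were median-ratio and quantile normalization, pseudocounts of 0.1 and 5, no filter or a mean of at least 5, summed records, linear hours, a step between 6 and 14 h, removal of a GC trend (natural spline, 5 degrees of freedom, from 2461 genes of mean at least 5), limma-voom on recovered reads (at least 10 in at least 3 libraries, 13505 genes) and each library left out. Chosen after seeing the data were voom with the GC trend removed or with a library left out, and the ratios to 4, 6 and 24 h.

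The members, lists and tests were chosen with earlier results of these data known. Printed in full were members called on values or reads, the 8 of largest fitted change, those of highest and lowest ratio at 48 h, and 3 chaperonin subunits of largest change. From each list of other chaperones, cofactors, proteases and clients, called genes and up to 4 of largest change with a mean of at least 5 were named. Cell type markers were given as sums, with the genes called on reads and some others named.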

Additional observations from a re-analysis of the deposited data

How the results depend on the processing

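No paired analysis was possible because each time point has 1 library. Of 1039 recomputed values, 958 kept their direction and their side of the threshold or, for the medians, moved by less than a set tolerance. The tolerance was 0.31 for medians of fitted changes, the median standard error of the members, and 0.37 for medians of ratios. Such tolerances are wide: the chaperonin median took the other sign without the 48 h library and was still counted among the 958. The number of members called was 0 on the values, 1 (Hsp90aa1) with linear hours (-1.37, limma adjusted p = 0.0398), on reads and on reads with the GC trend removed, and 0 to 3 with a library left out. The median change of the heat shock genes, -0.50, was -0.18 with the GC trend removed, -0.15 on reads with it removed, -0.18 with a step between 6 and 14 h and -0.20 without the 48 h library, and their median ratio at 48 h moved from -0.61 to -0.22 with the GC trend removed. Without the 48 h library the chaperonin median turned from -0.15 to 0.12, and without the 24 h library it was -0.33. The cause of these shifts was not tested.

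The other sign was taken by 61 member values, of which neither the original nor the alternative was called. With the GC trend removed, on values and on reads in that order, these were Bag3 (-0.18, -0.15), Cct2 (0.11, 0.13), Cct4 (0.088, 0.12), Cct7 (-0.20, -0.23), Dnaja1 (0.20, 0.20), Dnajb1 (-0.085, -0.11), Fkbp4 (-0.087, -0.12), Hspa4 (0.15, 0.17), Hspb1 (-0.45, -0.52), Ptges3 (0.16, 0.21), St13 (0.30, 0.35), Tcp1 (0.021, 0.025) and, on values alone, Chordc1 (0.21). With the step they were Bag3 (-0.0030), Cct2 (0.020), Cct6a (0.053), Hsp90ab1 (0.017), Hspa4 (0.091), Hspb1 (-0.18) and Tcp1 (0.10). With quantile normalization they were Cct5 (-0.11), Cct7 (-0.11), Dnajb1 (-0.081) and Stip1 (-0.051), and with linear hours Cct5 (-0.017). With 1 library left out, on values or reads, changes ran from -0.33 to 0.58 for Bag3, -0.16 to 0.056 for Cct2, -0.46 to 0.038 for Cct4, -0.067 to 0.29 for Cct5, -0.39 to 0.19 for Cct6a, -0.12 to 0.031 for Hsp90ab1, -0.22 to 0.12 for Hspa4, -0.37 to 0.45 for Hspb1, -0.59 to 0.11 for Ptges3, -0.44 to 0.20 for St13 and -0.36 to 0.26 for Tcp1.

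Depth limits Hspa1a, Hspa1b and Dnajb4 most. Over all genes, 19 rose and 4 fell on the values, 0 and 0 with the GC trend removed (1177 at an unadjusted p under 0.05), 162 and 28 with linear hours, 36 and 7 with a pseudocount of 0.1, and 304 and 108 on reads.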

Other observations

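The chaperones of the endoplasmic reticulum, which fold secreted and membrane proteins, are not among the 34 genes and were followed as a list of 16, all tested. On the values 0 of 16 were called, with 9 negative changes and a median of -0.030. Hsp90b1 (Grp94) had 49.4, 47.8, 41.7, 23.3, 58.6, 55.5 and 24.8 from 0 to 48 h, and its lowest libraries were 6 and 48 h. Hspa5 (BiP), the Hsp70 of that compartment, named after its values were seen, had 71.2, 50.9, 39.4, 36.8, 80.6, 58.4 and 42.8, lowest at 6 h and highest at 14 h. Dnajb9 (ERdj4), a J-domain partner of BiP, had 9.76, 6.42, 7.69, 3.68, 6.37, 4.36 and 1.43. It was highest at 0 h and lowest at 48 h. Its change on the values was -1.71 ± 0.43 (limma adjusted p = 0.0856), and on reads it fell by 2.14 (limma-voom adjusted p = 0.0493), a call lost with the GC trend removed (0.0881). Among genes with a mean of at least 5, the others of largest change were Hyou1 (0.51), Hsp90b1 (-0.42) and Sdf2l1 (0.40), and none was called. Dnajb11, with a mean of 4.14, had a change of -0.60 and was not called.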
